A study of Neurospora crassa OR74A with 2 samples.

Results

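Transcript levels of 7 cytoskeletal genes were compared between germlings of Neurospora crassa, a filamentous ascomycete, with and without the transcription factor PP-1. The genes, chosen by identifier out of 8564 in the files, encode actin (act, NCU04173), β-tubulin (tub-2, NCU04054, also called Bml), the formin BNI-1 (bni-1, NCU01431) and the septins CDC-3, CDC-10, CDC-11 and CDC-12 (NCU08297, NCU03515, NCU02464 and NCU03795). The study sequenced 1 wild-type library, from strain FGSC 2489, and 1 from a Δpp-1 strain, which lacks the pp-1 gene. Each culture grew for 5 h at 30 °C from conidia, which are asexual spores. Neither the mating type nor the parent of the Δpp-1 strain is named in the labels.

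Actin polymerises into the cables, patches and rings that carry vesicles to the hyphal tip, take up membrane and build the cross walls, or septa. Formins nucleate and lengthen the unbranched filaments of cables and rings. Tubulins form the microtubules along which nuclei and organelles move. Septins are GTP-binding proteins that join in fixed order into rods and then filaments or rings under the plasma membrane, at germ tube tips and at sites of septation. In the budding yeast Saccharomyces cerevisiae, Cdc10 lies at the centre of the rod, Cdc3 and Cdc12 follow outward, and Cdc11 caps the end. PP-1 is a Ste12-type factor needed for germling fusion, in which cells polarise and grow toward each other before their walls open.

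Levels are RPKM, reads per kilobase of gene per 1000000 reads of the library, so that genes of different length can be set side by side. Estimated from the steps between low values, which rest on few genes, the wild-type library held 3935036 reads and the Δpp-1 library 4681960. The pp-1 transcript itself (NCU00340) stood at 83.8 RPKM in wild-type germlings and 1.69 RPKM in Δpp-1, the side its labels call for. Differences are given as log2 folds, Δpp-1 over wild type, after adding 1 RPKM to each value. Among 4831 genes that reached 10 RPKM in either library, the median log2 fold was -0.28, called the median gene below. With 1 library per strain there is no replicate check and no test. Each value describes these 2 libraries, and intervals cover counting error only. In a whole culture, fewer cells expressing a gene and less RNA per cell cannot be told apart.

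Among the members the 3 septin genes above 0 were higher in Δpp-1 than in the wild type, by the most for cdc-3, while tub-2 and bni-1 were lower and lay beside the median gene. act was within counting error of equal. None of the 6 members above 0 was 2-fold higher or lower in the values as deposited, where 2.73% of the 4831 genes were higher by 2-fold or more and 6.98% lower by as much. At 1.5-fold, 1 member (cdc-3) was higher and 0 were lower, against 6.11% and 23.3% of all genes. The median log2 fold of the 6 was 0.06, against -0.28 for the median gene. Of the 6 members, 3 were higher by any amount, all of them septin genes, and 3 were lower, against 26.2% and 73.8% of all genes. Since a scaling of the libraries moves all genes together, ratios between members within a library, which no scaling touches, are given as well.

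**Figure D1:**
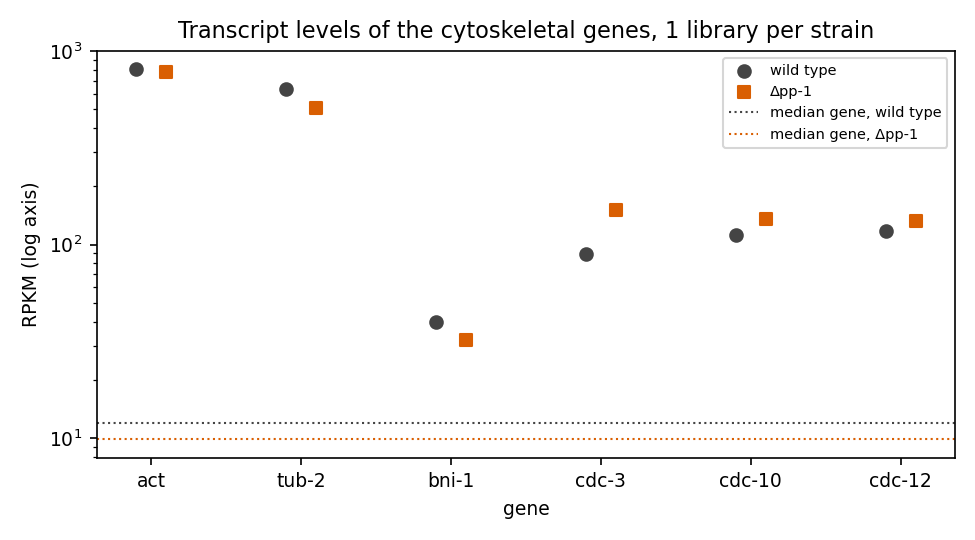
RPKM on a log axis of the 6 members above 0 in the wild-type library (circles) and the Δpp-1 library (squares), with dotted lines at the median of all 8564 genes. act and tub-2 stand at 506 RPKM or more in both libraries, bni-1 at 40.0 and 32.1 RPKM, and the 3 septins between 89.1 and 151 RPKM.

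The actin gene stood at 806 RPKM in wild-type germlings and 778 RPKM in Δpp-1, the highest level of the members in both libraries. This placed it at rank 129 of 7759 genes above 0 in the wild type and at rank 117 of 7763 in Δpp-1. Its ratio, Δpp-1 over wild type, was 0.966, with a 95% counting interval from 0.925 to 1.01. The log2 fold of -0.05 is 0.23 above the median gene, so whether act counts as lower or higher depends on the scaling. Of all 4831 genes, 29.9% had a log2 fold at least as high.

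β-tubulin, the partner of α-tubulin in the microtubule subunit, stood at 634 RPKM in wild-type germlings and 506 RPKM in Δpp-1. The ratio was 0.797, with a counting interval from 0.759 to 0.837. The log2 fold, -0.33, is 0.05 below the median gene, and 54.6% of genes had one at least as high. tub-2 was therefore lower in the values as deposited by about as much as the middle of the transcriptome. Within each library, tub-2 was at 0.787 of the act level in the wild type (interval 0.751 to 0.824) and at 0.650 in Δpp-1 (0.620 to 0.680). These intervals do not overlap, so the pair act and tub-2, often used as reference genes, gave unequal answers in these libraries.

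The formin gene bni-1 was the lowest of the members above 0, with 40.0 RPKM in wild-type germlings and 32.1 RPKM in Δpp-1. It still stood 3.35 times above the median level of all genes in the wild type and 3.26 times above it in Δpp-1. Its ratio was 0.802, with a counting interval from 0.711 to 0.904, and its log2 fold of -0.31 was 0.03 below the median gene. Relative to act, whose filaments it assembles, bni-1 stood at 0.0497 in the wild type (0.0454 to 0.0543) and 0.0412 in Δpp-1 (0.0376 to 0.0451). The upper bound in Δpp-1 lies below the lower bound in the wild type.

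Septin levels fell in a narrow band in each library, below act and tub-2 and above bni-1. cdc-3 stood at 89.1 RPKM in wild-type germlings and 151 RPKM in Δpp-1. That is a ratio of 1.70, with a counting interval from 1.56 to 1.85, and a log2 fold of 0.76. Only 4.22% of the 4831 genes had a log2 fold at least as high. The gene moved from rank 873 in the wild type to rank 409 in Δpp-1. Relative to the median gene its log2 fold was 1.03, past 2-fold, as it was for 4.66% of all genes, and no member was 2-fold below the median gene, as 4.35% of genes were.

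The septin gene cdc-10 stood at 111 RPKM in wild-type germlings and 136 RPKM in Δpp-1. Its ratio was 1.22 (1.08 to 1.38) and its log2 fold 0.28, a value reached or passed by 12.6% of genes. The level of cdc-12 was 118 RPKM in wild-type germlings and 133 RPKM in Δpp-1. The ratio of 1.13 had a counting interval from 1.01 to 1.26, whose lower bound is close to equal levels. Its log2 fold was 0.17, reached or passed by 16.8% of genes. Relative to the median gene, cdc-10 was 0.56 and cdc-12 0.45 higher on the log2 scale.

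**Figure D2:**
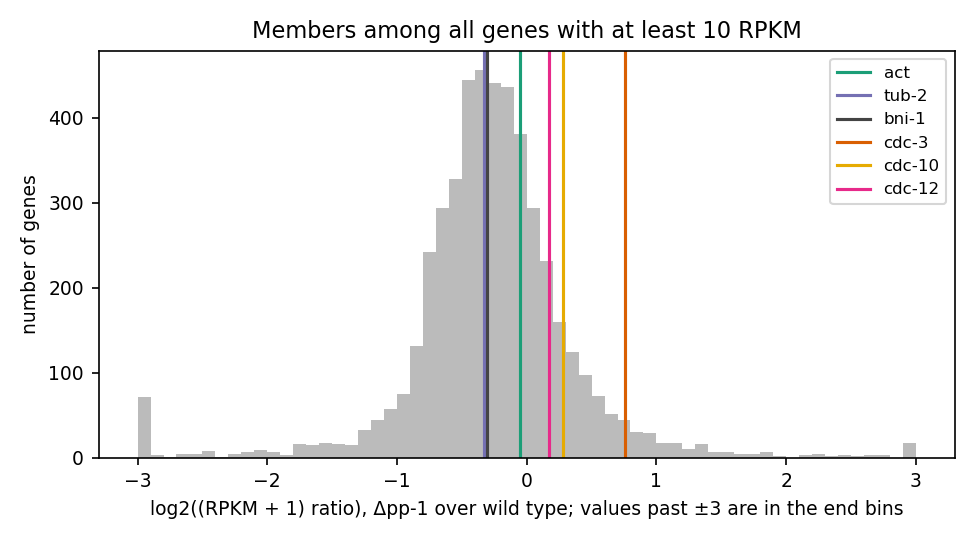
Histogram of log2 folds, Δpp-1 over wild type, of the 4831 genes that reached 10 RPKM in either library (bins of log2 fold on the x axis, number of genes on the y axis), with a vertical line for each member above 0. tub-2 and bni-1 lie at the peak, act to its right at -0.05, and the septins cdc-12, cdc-10 and cdc-3 further right at 0.17, 0.28 and 0.76.

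The order of the septin genes differed between the libraries. In the wild type cdc-12 and cdc-10 stood above cdc-3. The ratio of cdc-3 to cdc-10 was 0.799 (0.711 to 0.899) and that of cdc-3 to cdc-12 was 0.757 (0.678 to 0.846). In Δpp-1 the same ratios were 1.12 (1.02 to 1.23) and 1.14 (1.04 to 1.25), so cdc-3 was the highest of the 3. Both ratios lay below 1 in the wild type and above 1 in Δpp-1, with intervals that do not overlap between the libraries. The order of the genes within a library also rests on the gene lengths behind the RPKM values. Those lengths are not given, and the intervals do not cover them. cdc-10 and cdc-12 did not differ beyond counting error in either library, at ratios of 0.946 (0.834 to 1.07) and 1.02 (0.918 to 1.14).

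As a share of the summed RPKM of the 3 septin genes, cdc-3 made up 28.0% in the wild type and 36.1% in Δpp-1. The share of cdc-10 was 35.0% and 32.3%, and that of cdc-12 was 37.0% and 31.6%. The sum itself was 318 RPKM in wild-type germlings and 420 RPKM in Δpp-1. Set against act, the sum was 0.395 of the act level in the wild type and 0.539 in Δpp-1. Of the single septins, the ratio to act was 0.111 and 0.195 for cdc-3, 0.138 and 0.174 for cdc-10, and 0.146 and 0.171 for cdc-12, the wild type given first. The intervals of the libraries overlapped for cdc-12 (0.133 to 0.160 and 0.158 to 0.184) and not for cdc-3 (0.102 to 0.119 and 0.184 to 0.206) or cdc-10 (0.125 to 0.152 and 0.160 to 0.189).

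**Figure D3:**
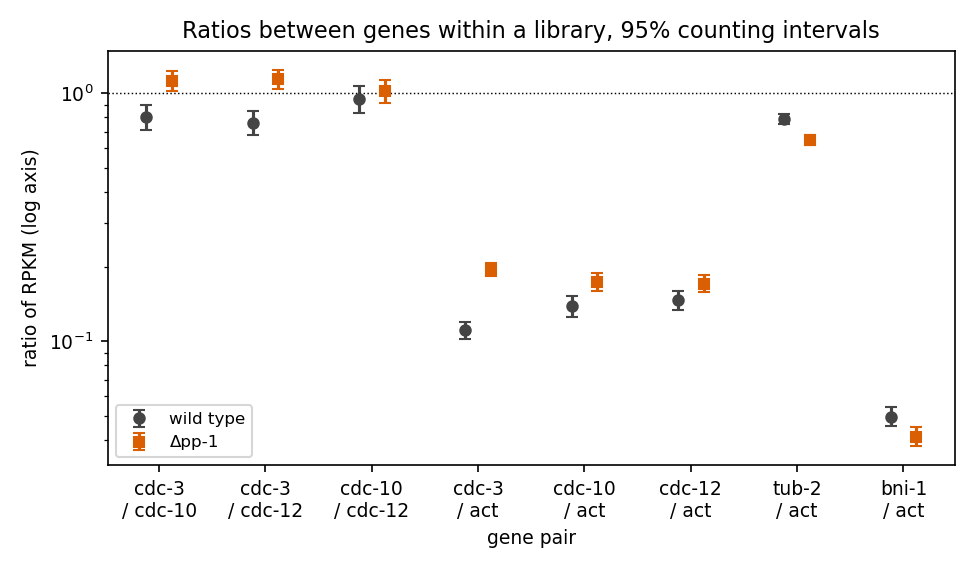
Ratio of RPKM between 2 genes of the same library (log axis) for 8 gene pairs, in the wild type (circles) and Δpp-1 (squares), with 95% counting intervals as bars. cdc-3 over cdc-10 and cdc-3 over cdc-12 lie below 1 in the wild type and above 1 in Δpp-1, cdc-10 over cdc-12 stays near 1, and tub-2 over act goes from 0.787 to 0.650.

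The septin gene cdc-11 (NCU02464) was listed at 0 in both libraries, so no ratio can be given for the septin whose yeast counterpart caps the rod. A listed 0 may be an estimate that failed, not a lack of reads, and 559 of the 8564 genes, or 6.53%, were at 0 in both. The genes next to cdc-11 on either side in assembly NC12, NCU02463 and NCU02465, were also listed at 0 in both libraries. The next genes beyond them were not: NCU09982 stood at 29.4 RPKM in wild-type germlings and 27.6 RPKM in Δpp-1, and NCU02466 at 16.1 and 19.5 RPKM. Runs of 3 or more adjacent protein-coding genes at 0 in both libraries held 26 of the 435 such genes that could be placed by a current tag, in 8 runs.

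The reads of overlapping genes cannot be told apart by strand here. Of the 7 members, cdc-3 alone shares bases with a gene next to it in NC12, NCU08296 at its end. That gene stood at 114 RPKM in wild-type germlings and 92.5 RPKM in Δpp-1, a log2 fold of -0.29, on the opposite side of 0 from cdc-3. The gene on the other side of cdc-3, NCU08298, stood at 6.54 and 12.8 RPKM, a log2 fold of 0.87. Beyond these 2 neighbours of cdc-3, NCU08299 and NCU08295 had log2 folds of -0.55 and -0.82. The nearest genes of cdc-10, NCU03516 and NCU03514, had log2 folds of -0.66 and -0.18, and those of cdc-12, NCU03794 and NCU03796, had -0.52 and -0.22. The next genes beyond these had log2 folds of -0.23 (NCU03517) and -0.24 (NCU03513) for cdc-10, and of 0.38 (NCU03793) and 0.37 (NCU03797) for cdc-12.

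Scaling changed the side on which some members lay. After scaling to equal medians, taken over genes whose mean reached 10 RPKM, the log2 folds were 1.01 for cdc-3, 0.54 for cdc-10, 0.43 for cdc-12, 0.21 for act, -0.06 for bni-1 and -0.07 for tub-2. With tub-2 set equal in both libraries cdc-3 was also past 2-fold, at 1.08, and with act set equal it was not, at 0.81. These last 2 scalings were added after the data were seen. The order of the 6 log2 folds, from cdc-3 through cdc-10, cdc-12, act and bni-1 to tub-2, was the same under all the scalings, since each moves all members by nearly the same amount.

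**Figure D4:**
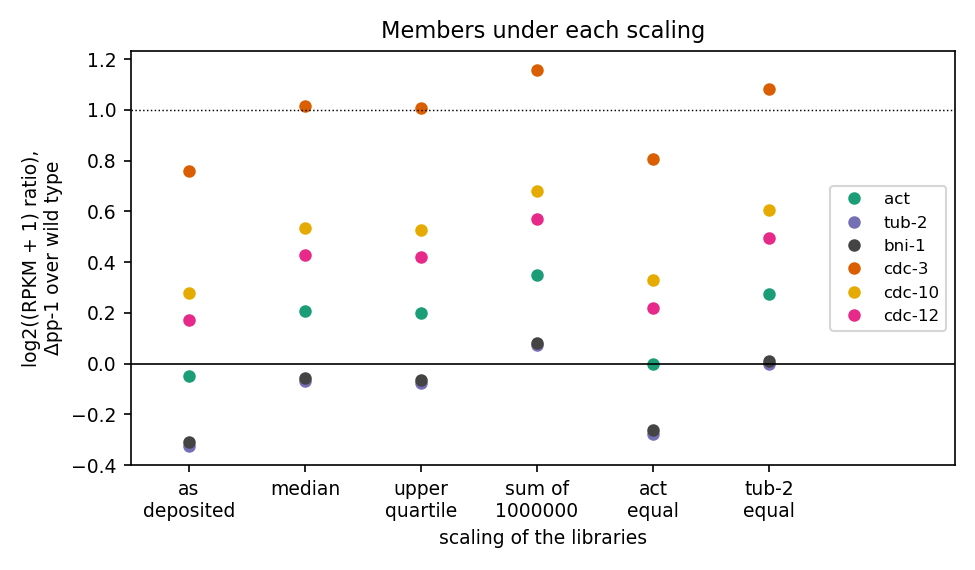
Log2 fold, Δpp-1 over wild type, of the 6 members above 0 (y axis) under 6 scalings of the libraries (x axis), with lines at 0 and at 2-fold higher. cdc-3 lies at 0.76 as deposited and at 0.81 with act set equal, and above the 2-fold line with the other scalings, while tub-2 and bni-1 lie within 0.1 of 0 except as deposited and with act set equal.

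Genes that work with the members were drawn from 6 symbol lists, of which the list of further septins matched no symbol. The other 5 held 32 genes, and 30 of these reached 10 RPKM in either library. Of the 30, 1 was 2-fold lower and 0 were 2-fold higher in Δpp-1, against 6.98% and 2.73% of all genes. Their median log2 fold was -0.19, which is 0.09 above the median gene, and 24 were lower and 6 higher by any amount, near the 73.8% and 26.2% of all genes. Among the 30, ro-2, ro-10, mob-1 and bud3 reached 10 RPKM in the wild type only, so the filter could count them as lower alone. The same filter was applied to all genes.

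On the actin side, the tropomyosin gene tpm (NCU01204), whose product lines unbranched filaments, stood at 358 RPKM in wild-type germlings and 478 RPKM in Δpp-1. Its ratio was 1.34 (1.24 to 1.44), the largest of the 30, and tpm went from 0.444 of the act level (0.415 to 0.475) to 0.615 (0.581 to 0.650). The Arp2/3 complex, which branches filaments, was represented by arp2 (NCU07171) and arp-3 (NCU01756), with log2 folds of -0.12 and 0.10. The fimbrin gene fim (NCU03992), whose product bundles filaments, stood at 114 and 113 RPKM. The gene of coronin, a protein of actin patches, crn (NCU00202), stood at 85.8 RPKM in wild-type germlings and 67.7 RPKM in Δpp-1. The list of actin genes held 7, with bud6 and spa2, which are described below. None of the 7 was past 2-fold, and the median log2 fold was -0.01, or 0.26 above the median gene. Their log2 folds ran from -0.87 for bud6 to 0.42 for tpm. The myosin gene myo2 (NCU00551), the 1 matched myosin, stood at 16.9 and 20.2 RPKM.

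The genes of formin-based polarity were unlike each other. bud6 (NCU08468), named for the yeast protein that helps formins nucleate actin, stood at 36.8 RPKM in wild-type germlings and 19.6 RPKM in Δpp-1. Its ratio of 0.534 (0.445 to 0.639) was lower than that of bni-1, and the ratio of bud6 to bni-1 went from 0.919 (0.799 to 1.06) to 0.612 (0.518 to 0.721). spa2 (NCU03115), whose yeast counterpart is a scaffold of the tip complex that holds formin and Bud6, stood at 19.6 RPKM in both libraries.

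The α-tubulin genes tba-1 (NCU09132) and tba-2 (NCU09468) stood at 305 and 377 RPKM in wild-type germlings and at 221 and 333 RPKM in Δpp-1. Their sum was 1.08 times the tub-2 level in the wild type and 1.10 times in Δpp-1, so the summed α-tubulin and the β-tubulin transcripts kept nearly the same proportion. The γ-tubulin gene tbg (NCU03954), which acts in starting microtubules, stood at 24.2 and 21.6 RPKM. Of 12 genes for microtubule motors and dynactin, 10 reached 10 RPKM in either library. Of these 10, 9 were lower and 1 higher by any amount, against 73.8% and 26.2% of all genes, and none was past 2-fold. Their median log2 fold was -0.44, or 0.16 below the median gene. ro-2 (15.9 and 8.12 RPKM) and ro-10 (10.9 and 9.63 RPKM) reached 10 RPKM in the wild type only. The filter could therefore count them as lower alone. The dynein heavy chain gene ro-1 (NCU06976) had a log2 fold of -0.05, and the kinesin gene nkin-2 (NCU06733) stood at 12.1 and 12.4 RPKM. The lowest log2 folds of the 10 were -0.89 for ro-2 (NCU11177 in the files), -0.62 for ro-3 (NCU03483), the large dynactin subunit, and -0.56 for ro-11 (NCU08566). Below 10 RPKM, ro-12 (NCU07196) stood at 4.28 and 2.16 RPKM and the kinesin gene kin-3 (NCU03715) at 3.50 and 5.00 RPKM.

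Of 9 genes for polarity and its kinases, mob-1 (NCU01605) was past 2-fold, at 24.1 RPKM in wild-type germlings and 8.25 RPKM in Δpp-1. The ratio was 0.343, with a counting interval from 0.218 to 0.527 that rests on 76 and 31 reads. Its product activates the septation kinase DBF-2, whose gene dbf2 (NCU09071) stood at 19.7 and 21.3 RPKM. Next came bud4 (NCU00152) at 25.0 and 15.0 RPKM and bud3 (NCU06579) at 14.6 and 9.93 RPKM, genes of septation site factors. Chosen after its value was seen, rgf3 (NCU02131), another septation gene, had a log2 fold of -0.50, which is 0.22 below the median gene. The polarity GTPase genes cdc42 (NCU06454) and rac-1 (NCU02160), also chosen then, had -0.19 and -0.15. The highest of this list were dbf2, the kinase gene cot-1 (NCU07296) and cdc24 (NCU06067), which encodes an activator of CDC42, at 0.11, 0.09 and -0.11.

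**Figure D5:**
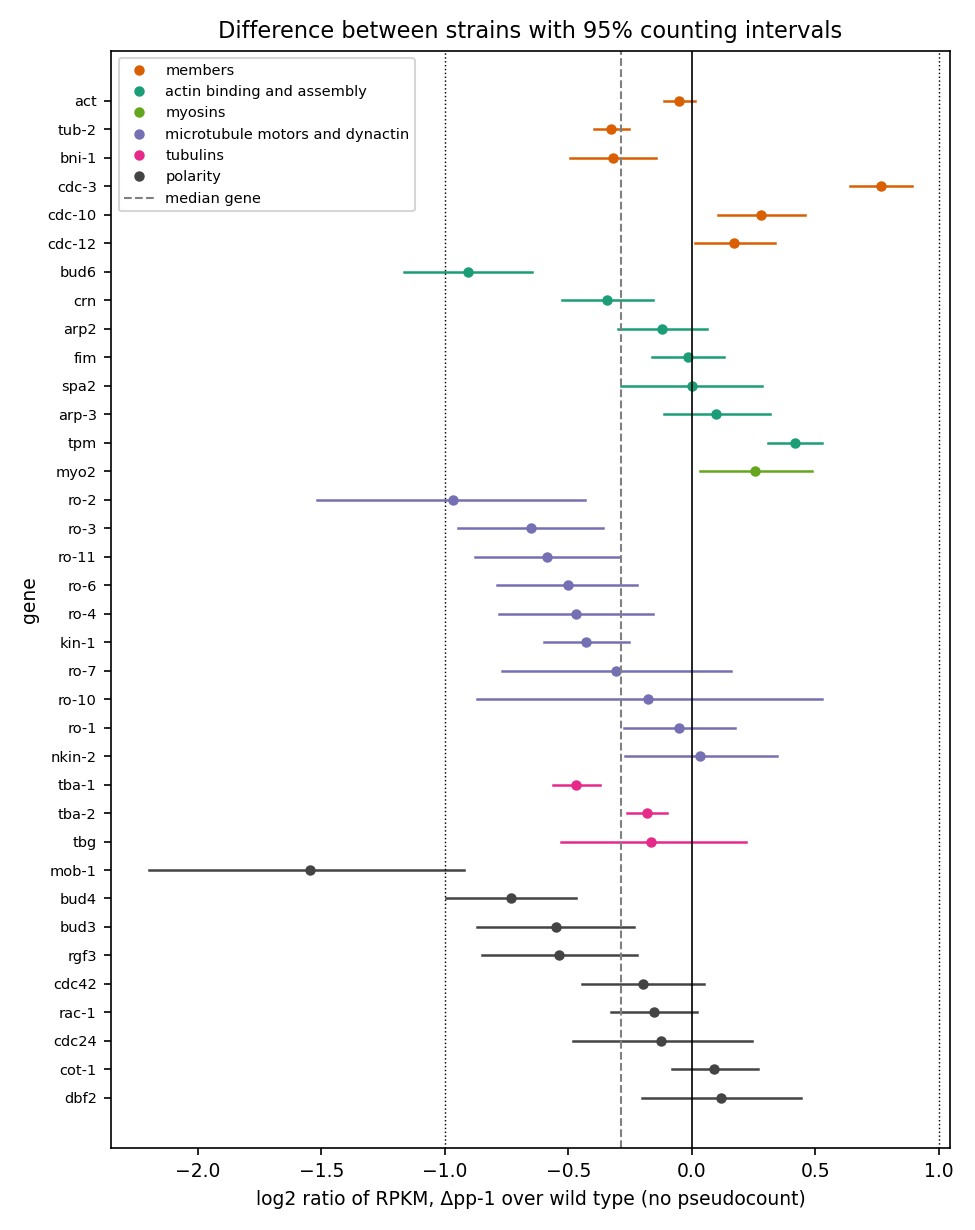
Log2 ratio of RPKM, Δpp-1 over wild type and without a pseudocount (x axis), of the 6 members above 0 and the 30 list genes that reached 10 RPKM in either library (rows, coloured by list), with 95% counting intervals as bars. The dashed line (median gene in the key) marks the median log2 ratio without a pseudocount, -0.287. It was taken over the 4817 background genes above 0 in both libraries. The dotted lines mark 2-fold. cdc-3 and tpm lie furthest to the right and mob-1 furthest to the left.

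Some conidial transcripts differed more between the libraries than any member did. Of 10 measured markers of conidia and aerial hyphae, 6 reached 10 RPKM in either library. Of these 6, 4 (con-6, con-10, eas and al-1) were past 2-fold on the higher side in Δpp-1 and 0 on the lower side, against 2.73% and 6.98% of all genes. The rest were al-2, at 15.2 and 22.5 RPKM, and ccg-1, at 14.3 and 13.2 RPKM. con-6 and eas, at 8.78 and 9.55 RPKM in wild-type germlings, reached 10 RPKM in Δpp-1 only. The filter could therefore count them on the higher side alone. The summed level of the 10 was 109 RPKM in wild-type germlings and 360 RPKM in Δpp-1, of which al-1 alone gave 41.1 and 187 RPKM. con-13 stood at 0.313 RPKM in Δpp-1 and was listed at 0 in wild-type germlings, and fl, a regulator of conidiation, stood at 2.83 and 2.65 RPKM. The regulator acon-3 stood at 1.83 and 0.668 RPKM, and con-8 at 3.57 and 2.91 RPKM. Whether the amount of conidia or aerial hyphae differed between the cultures was not tested, nor was any part of theirs in the septin values.

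Named genes with levels most like those of the members were found by distance in log2(RPKM + 1) over the 2 libraries, which is a likeness of 2 values only. For cdc-3 they were gnb-1 (NCU00440, 96.4 and 149 RPKM) and atg-8 (NCU01545, 97.8 and 161 RPKM). cdc-10 and cdc-12 shared leu-4 (NCU02010, 114 and 131 RPKM) as the nearest. For act the nearest was ppm-2 (NCU03100, 860 and 744 RPKM), for tub-2 spe-3 (NCU06727, 621 and 504 RPKM), and for bni-1 ty-1 (NCU00455, 40.6 and 32.8 RPKM). The distances of these nearest genes ran from 0.03 for tub-2 to 0.12 for cdc-3.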

How the data were processed

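Per the labels' protocols, RNA was taken with Trizol, mRNA was selected on oligo(dT) beads and fragmented, and randomly primed cDNA was ligated to adapters, sized on a gel and amplified. The steps described do not mark strand. The submitters' processing notes name TopHat and Cufflinks but neither their versions nor what each did. The build and gene models are not given in the sources used here. The deposited values are RPKM per the file headers. Repeated identifiers carried equal values and were counted once.

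A log2 fold is log2(RPKM + 1) in Δpp-1 minus log2(RPKM + 1) in the wild type. It was computed in Python 3.11.15 with NumPy 2.4.6, pandas 2.3.3 and SciPy 1.17.1. Genes that reached 10 RPKM in either library formed the background. Depth was read from low values. Among 800 genes under 1.5 RPKM in each library, the most frequent log2 ratio, wild type over Δpp-1, was 0.251. It was taken as the ratio between the libraries of the worth of 1 read. The Δpp-1 values were scaled by it and pooled with those of the wild type. Within a preset range, the lowest pile of the pooled product of RPKM and span (kb) that reached 50% of the highest lay at 0.254. This value was taken as the worth of 1 read in the wild type. The value for Δpp-1, 0.214, was derived from it by the same ratio. Within 0.4% of these values lay 7 and 11 genes, against at most 4 and 7 at positions shifted to either side, so the totals are estimates. Within 0.001 of the log2 ratio of 0.251 lay 100 of the 800 low genes, against 0 at values shifted by 0.05. Since that ratio was taken from these same genes, the count shows a sharp pile and is no independent check of the steps. The resulting library totals are 3935036 and 4681960 reads. Counting intervals are exact (Clopper-Pearson) 95% intervals computed from 50% of each gene's estimated reads, since spans hold introns. They cover counting error only, and PCR copies are not independent molecules.

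Symbols and neighbours came from RefSeq's gene table of assembly NC12, which matched 8238 of 8564 identifiers, 151 of them by an older tag. The names cdc-3, cdc-10, cdc-11 and cdc-12 are the usual ones for these identifiers and are not in that table. The members and gene lists were chosen with earlier results of these data known. The rule for named genes took the members, pp-1, list genes past 2-fold, the 3 smallest and 3 largest log2 folds of each list, the 2 nearest genes with a symbol for each member, and neighbours. Some further polarity genes are not analysed here. Scalings, pseudocounts, filters and the size that counts were varied. The script was tested on data simulated with the same spans that it then used. That test cannot show how introns in the spans affect the steps or the intervals.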

Additional observations from a re-analysis of the deposited data

How the results depend on the processing

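No paired analysis was possible because there was 1 library of each strain, which also left no replicate to omit. Pseudocounts of 0.1 and 5 RPKM, and act set equal in both libraries, kept the members' log2 folds within their counting intervals and the counts within 1.5 times. Other scalings raise Δpp-1 relative to the wild type. With median scaling the log2 folds were 0.21 (act), -0.068 (tub-2), -0.058 (bni-1), 1.01 (cdc-3), 0.54 (cdc-10) and 0.43 (cdc-12). With upper-quartile scaling they were 0.20, -0.076, -0.065, 1.01, 0.53 and 0.42, and after rescaling each library to a sum of 1000000 they were 0.35, 0.072, 0.080, 1.16, 0.68 and 0.57. With tub-2 set equal they were 0.28, 0, 0.0087, 1.08, 0.60 and 0.50. In these 4 settings, in the same order, the median of the members was 0.32, 0.31, 0.46 and 0.39, that of the septins 0.54, 0.53, 0.68 and 0.60, that of the wider lists 0.067, 0.060, 0.21 and 0.13 against -0.19, and that of all genes -0.029, -0.036, 0.11 and 0.038. In each of them 1 member, cdc-3, was past 2-fold. The counts of all genes past 2-fold, 132 higher and 337 lower as deposited, were 210 and 219, 205 and 222, 288 and 197, and 241 and 203. With no filter they were 252 and 521, and with at least 30 RPKM 67 and 179, where 0 list genes remained past 2-fold. At 1.5-fold they were 295 and 1125, with 1 member higher (cdc-3) and 5 list genes lower. With all reads in place of 50%, an alternative added after seeing the data like those with act and tub-2, the bound nearest to 0 of the log2 ratio of act went from 0.01 to -0.01, so its interval lay just below equal levels. Depth widens the intervals of low list genes, such as ro-10 with 36 and 38 reads and mob-1 with 76 and 31.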
